A study of Mus musculus with 6 samples.

Results

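The genes of the endoplasmic reticulum (ER) stress response and of the integrated stress response were examined in whole mouse oviduct. They are 39 genes chosen by symbol for their known roles, with earlier results of these data known, of 55363 symbols in the deposited tables. All 39 were found, and all 39 passed the filter on low values (a mean of at least 1 FPKM, fragments per kilobase scaled by library size, over the 6 libraries), among 15438 features tested. The tissue came from pregnant females of 6 to 8 weeks at gestational day 3, where day 1 was the day of the vaginal plug. There were 3 libraries labelled Mettl3 f/f, which by convention means that loxP sites flank the gene, and 3 labelled Mettl3 d/d, which by convention means that the flanked part was deleted. Mettl3 encodes the enzyme that writes N6-methyladenosine on RNA. Neither the Cre driver nor the deleted exons could be read from the labels, which also do not say whether each library came from a separate animal, so the tests see only how these 6 libraries vary, which may be technical. The question set by the design is how oviduct transcripts differ when Mettl3 is deleted. For these genes it was asked whether the targets of the transcription factor ATF4 and the chaperones of the ER differed in the same way.

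The ER folds secreted and membrane proteins, and unfolded protein there is sensed by 3 membrane proteins, PERK (gene Eif2ak3), IRE1 (Ern1) and ATF6. PERK, like kinases that sense other stresses, phosphorylates the translation factor eIF2, which lowers protein synthesis while the Atf4 transcript is translated. ATF4 raises genes for amino acid synthesis and tRNA charging, and with prolonged stress the factor CHOP (Ddit3). IRE1 splices the Xbp1 transcript, and XBP1 and ATF6 raise chaperones and the machinery of ER-associated degradation, which returns misfolded proteins to the cytosol. Secretory epithelia such as that of the oviduct carry a high load of ER protein folding. A value per gene shows neither the splicing of Xbp1 nor translation, phosphorylation or cleavage, so only transcript levels are described here.

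Mettl3 stood at 11.8, 12.1 and 13.2 FPKM across the f/f libraries and 19.8, 20.3 and 24.5 across the d/d libraries, so every d/d library was above every f/f library. The gene meant to be deleted was thus called higher under the d/d label, a log2 change of 0.75 with SE 0.12 (adjusted p = 0.0145, limma), which goes against that label. A value per gene cannot show a missing exon, and every direction below rests on the labels. Library values are given here in the order of replicates 1, 2 and 3. The libraries held an implied 16600000 to 17800000 fragments, and pairs of libraries correlated across genes (Pearson) at 0.935 to 0.964 in the same group and at 0.897 to 0.920 across groups. Genes of mitochondrial DNA held 3.6% to 5.7% of summed FPKM in f/f and 6.5% to 9.7% in d/d. Protein-coding nuclear genes held 67.9% to 70.9% in f/f and 58.7% to 65.4% in d/d. An alternative fit, given below, rescaled to the latter genes. The oviduct glycoprotein gene Ovgp1, which defines the secretory epithelium, was abundant in every library, from 2651 to 5690 FPKM. Whole tissue was used, so fewer cells of a type and less RNA per cell cannot be told apart.

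Of the 39 genes, 3 passed the test between the genotypes. Trib3, a pseudokinase gene induced by ATF4 and CHOP, was 5.43-fold higher in the libraries labelled d/d. Ppp1r15a, which encodes the phosphatase subunit GADD34 that reverses eIF2 phosphorylation, was 1.78-fold lower, and Creld2, a secreted ER stress-induced protein with disulfide isomerase activity, 1.94-fold lower. In limma's test with Benjamini-Hochberg adjustment over all 15438 features, 1 of the 39 rose and 2 fell, 7.69% of the members against 11.0% of all features tested. By direction, 6.04% of all features rose and 4.97% fell. The members' share is near that of all features, and the difference was not tested. Groups did not overlap in 17 members, 7 with higher and 10 with lower values under the d/d label, where 35.6% of all features did not overlap (18.1% higher and 17.4% lower). At an unadjusted p under 0.05 there were 15 members, 5 higher and 10 lower, where 29.6% of all features passed (15.4% higher and 14.2% lower).

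**Figure D1:**
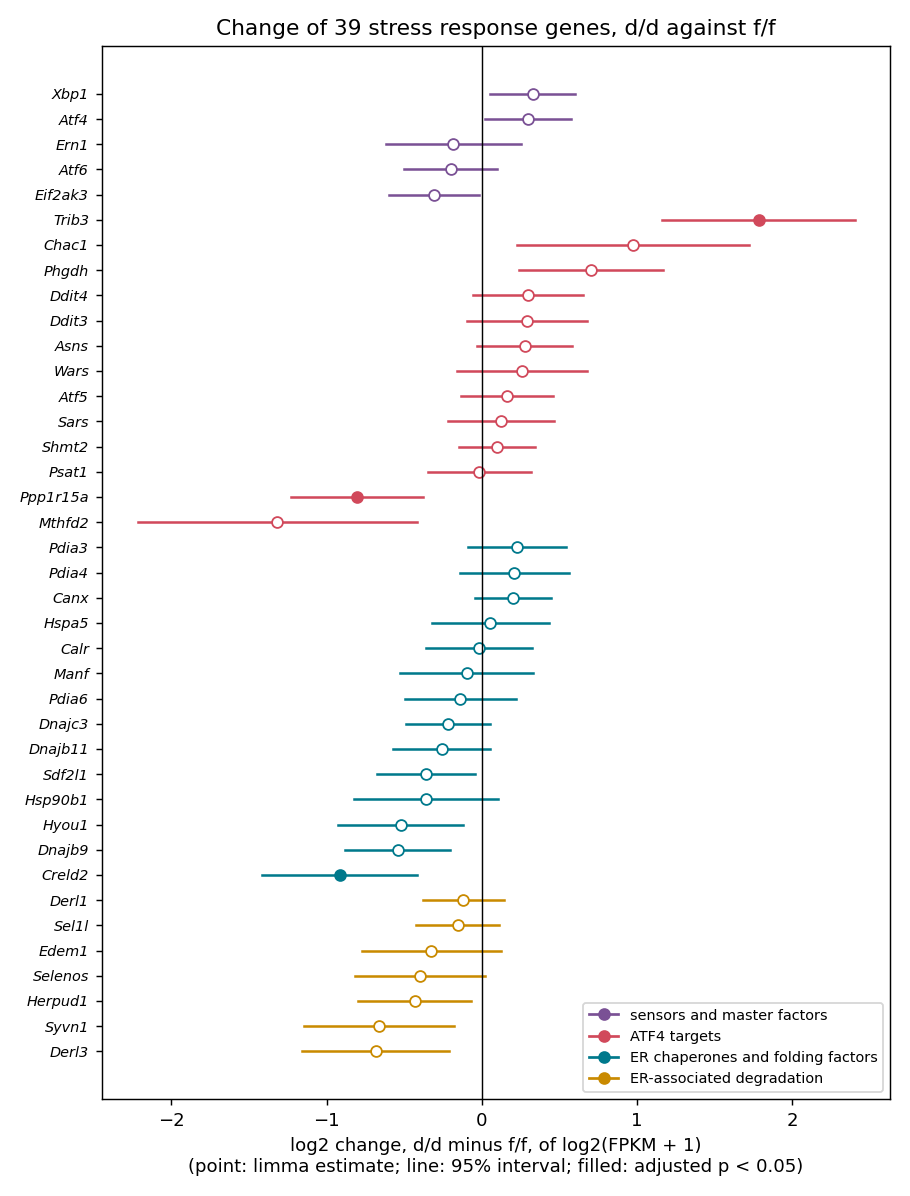
Log2 change of each of the 39 genes, d/d minus f/f on the log2(FPKM + 1) scale, grouped by role, with limma's 95% interval (3 libraries a group). Filled points passed the adjusted threshold: Trib3 at 1.79, Ppp1r15a at -0.80 and Creld2 at -0.92. All 7 genes of ER-associated degradation lie below 0, though 0 of the 7 passed, while 10 of the 13 ATF4 targets lie above 0. Over all 15438 features tested, 7528 lie above 0 and 7910 below.

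Promoter sequence was read for 34 members from RefSeq windows on GRCm38.p6, which run from 250 bases before to 50 bases after the annotated start. For Wars, Manf, Hyou1, Atf6 and Derl1 none is shown. Exact letters of 4 known elements were searched on both strands. The ER stress response element (ERSE), searched as CCAAT, 9 bases of any kind and CCACG, is bound by the factor NF-Y with ATF6 or XBP1. ERSE-II was searched as ATTGG, 1 base of any kind and CCACG. The core of the unfolded protein response element is TGACGTGG, and the site of ATF4 with C/EBP proteins (CARE) was searched as TGATGNAA. Searches were independent, and no rule was set for overlapping matches. ERSE was found in 7 of 12 chaperone genes (58.3%), 2 of 6 degradation genes (33.3%) and 0 of 12 ATF4 targets, against 37 of 27025 genes with a promoter window (0.137%). ERSE-II was found in Dnajb11 and Herpud1 and in 0.0444% of all genes with a window. CARE was found in 3 of 12 ATF4 targets (25%; Trib3, Chac1 and Asns), in Herpud1 and in 4.51% of all genes with a window. The core of the unfolded protein response element was in 0 of 34 members and in 0.714% of all genes with a window. Such elements were described from promoters of genes like these, so the members' shares are no independent finding. A match describes the letters in this window and is not evidence of binding, and a missing match says nothing of the factor.

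All of the windows below hold matches, so they do not represent the 2 arms that are compared. CARE letters were found in only 3 of 12 ATF4 targets, Ppp1r15a not among them, and ERSE in 7 of 12 chaperone genes. Matches to any of these elements are in capitals and the rest in lower case, 5′ to 3′ on the strand of the gene. Hspa5 (chr2:34771840-34772139, plus strand) is the main ER chaperone, Hsp90b1 (chr10:86705395-86705694, minus strand) holds 2 matches to ERSE, and Creld2 (chr15:88819396-88819695, plus strand) is the chaperone gene that fell. Herpud1 (chr8:94386179-94386478, plus strand), a gene of ER-associated degradation and so in neither arm, is the member with both ERSE-II and CARE letters. Chac1 (chr2:119350992-119351291, plus strand) and Trib3 (chr2:152344011-152344310, minus strand) are the ATF4 targets with the largest log2 changes above 0, though only that of Trib3 passed the test.
Hspa5: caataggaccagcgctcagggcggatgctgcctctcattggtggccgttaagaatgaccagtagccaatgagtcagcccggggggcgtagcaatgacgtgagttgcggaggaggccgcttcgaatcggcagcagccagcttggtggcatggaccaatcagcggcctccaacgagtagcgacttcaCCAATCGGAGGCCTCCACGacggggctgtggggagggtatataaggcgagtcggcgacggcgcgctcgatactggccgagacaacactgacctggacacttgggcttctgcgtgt
Hsp90b1: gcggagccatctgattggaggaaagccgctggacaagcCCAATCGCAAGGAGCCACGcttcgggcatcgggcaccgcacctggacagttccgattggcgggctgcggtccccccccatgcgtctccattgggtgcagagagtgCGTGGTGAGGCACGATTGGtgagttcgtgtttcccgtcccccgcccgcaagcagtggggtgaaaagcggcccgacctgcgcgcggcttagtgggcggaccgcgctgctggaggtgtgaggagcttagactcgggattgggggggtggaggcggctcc
Creld2: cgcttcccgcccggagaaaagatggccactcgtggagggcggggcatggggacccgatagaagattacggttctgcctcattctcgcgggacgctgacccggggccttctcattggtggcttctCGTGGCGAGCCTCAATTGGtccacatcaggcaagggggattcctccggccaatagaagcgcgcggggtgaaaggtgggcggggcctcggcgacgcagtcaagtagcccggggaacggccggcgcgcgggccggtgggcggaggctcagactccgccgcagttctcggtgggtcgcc
Herpud1: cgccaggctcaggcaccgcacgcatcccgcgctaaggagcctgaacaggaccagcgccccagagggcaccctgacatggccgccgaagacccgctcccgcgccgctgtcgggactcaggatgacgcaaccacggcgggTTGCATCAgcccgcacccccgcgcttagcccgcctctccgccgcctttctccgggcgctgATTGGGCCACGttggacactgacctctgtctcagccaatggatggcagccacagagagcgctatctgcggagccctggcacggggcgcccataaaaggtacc
Chac1: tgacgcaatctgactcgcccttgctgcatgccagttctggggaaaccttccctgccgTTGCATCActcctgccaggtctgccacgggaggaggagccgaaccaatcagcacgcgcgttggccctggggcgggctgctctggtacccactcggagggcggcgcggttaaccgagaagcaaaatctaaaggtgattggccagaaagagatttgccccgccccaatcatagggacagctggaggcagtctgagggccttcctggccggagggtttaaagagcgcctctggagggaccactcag
Trib3: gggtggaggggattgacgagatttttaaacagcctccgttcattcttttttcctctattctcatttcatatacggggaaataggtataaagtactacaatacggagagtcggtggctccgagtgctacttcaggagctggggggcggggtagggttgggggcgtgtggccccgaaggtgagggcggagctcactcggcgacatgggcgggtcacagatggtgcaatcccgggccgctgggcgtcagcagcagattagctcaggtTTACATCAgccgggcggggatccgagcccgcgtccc

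In these windows the ERSE of Hspa5 runs from -65 to -47 relative to the RefSeq start, and that of Creld2 lies on the opposite strand from -126 to -108. Herpud1 holds its ERSE-II from -52 to -42 and CARE letters on the opposite strand from -112 to -105. The CARE letters of Chac1 lie on the opposite strand from -193 to -186. Those of Trib3 lie after the RefSeq start, from 15 to 22, also on the opposite strand. GENCODE, used here for gene coordinates, has other starts. By its outermost starts the Trib3 letters lie before the start and the ERSE of Hspa5 after it. The 11 chaperone and degradation members with either element had a median log2 change of -0.26, from -0.92 (Creld2) to 0.20 (Canx), and 9 of the 11 were below 0. The 7 with a window and neither element had a median of -0.32, from -0.54 (Dnajb9) to 0.23 (Pdia3), and 5 of the 7 were below 0. Of all 15438 features tested, 7910 were below 0. Of 9 other tested genes with ERSE letters, 0 rose and 0 fell, with a median of -0.05, and of 7 other tested genes with ERSE-II letters, 1 rose and 1 fell, with a median of 0.02, against a median of -0.01 over all features tested. Of the 300 other tested genes with CARE letters, 20 rose and 11 fell, with a median of 0.02.

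Of the sensors and master factors, 0 of 5 passed the test in either direction. Atf4, the factor made when eIF2 is phosphorylated, stood at 67.4, 77.1 and 82.6 FPKM across the f/f libraries and 98.9, 84.9 and 96.1 across the d/d libraries. The d/d values all lay above the f/f values, though the gap between d/d replicate 2 and f/f replicate 3 was small. The means were 75.7 ± 7.71 and 93.3 ± 7.43 (mean ± SD, n = 3 per group), a log2 change of 0.30 with SE 0.12 (adjusted p = 0.146, limma), and the 95% interval ran from 0.02 to 0.58. Xbp1, the substrate of IRE1 and a factor of secretory cells, stood at 133, 150 and 145 FPKM across the f/f libraries and 185, 159 and 194 across the d/d libraries. Its groups did not overlap either (log2 change 0.33, SE 0.12, limma adjusted p = 0.117). With quantile normalization Xbp1 passed the threshold narrowly (log2 change 0.34, limma adjusted p = 0.0499). The sensor genes had values in the opposite direction and also missed the threshold. Eif2ak3 ranged from 11.3 to 13.2 FPKM across the f/f libraries and from 8.61 to 10.3 across the d/d libraries, without overlap (log2 change -0.31, limma adjusted p = 0.150). Ern1 ranged from 15.0 to 20.0 FPKM in f/f and from 12.4 to 19.0 in d/d, and Atf6 from 14.5 to 17.2 and from 12.3 to 15.0, with groups that overlapped for both.

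**Figure D2:**
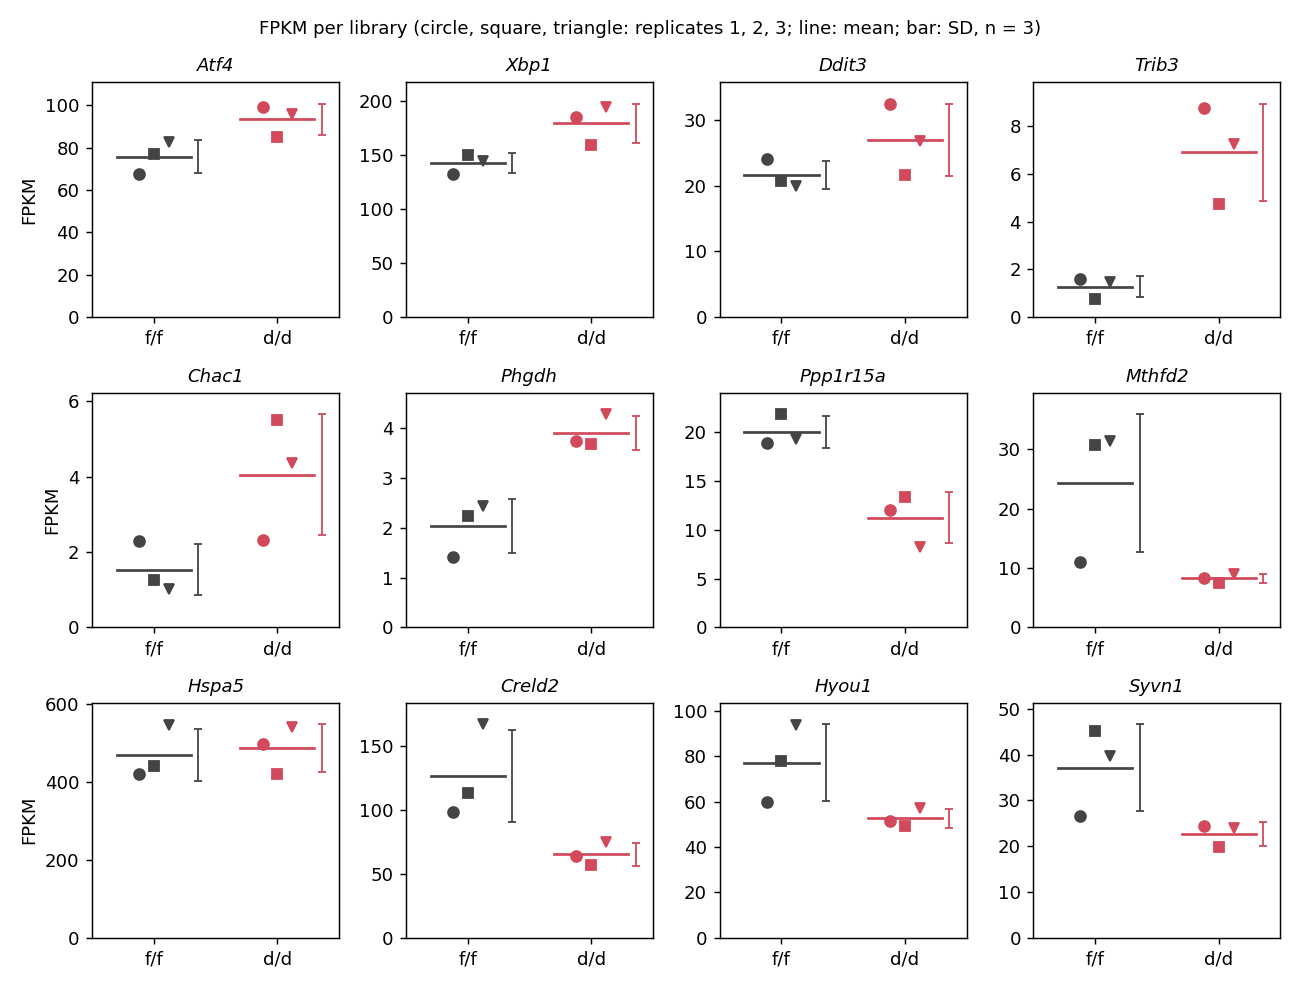
FPKM of 12 of the genes in each library, each panel with its own linear axis from 0; symbols mark replicates 1, 2 and 3, lines the mean and bars the SD (n = 3). The d/d libraries of Trib3 lie at 4.73 to 8.73 against 0.765 to 1.59 in f/f, those of Creld2 at 56.9 to 74.7 against 98.5 to 167, and Hspa5 overlaps between groups. Mthfd2 in f/f replicate 1, at 10.9, lies near the d/d libraries.

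Of the 13 ATF4 targets, 1 rose (Trib3), 1 fell (Ppp1r15a) and 11 did not pass, where 11.0% of all features were called. Their median log2 change was 0.26, from -1.32 (Mthfd2) to 1.79 (Trib3), and 10 were above 0 and 3 below. Over all 15438 features tested, 7528 were above 0 and 7910 below. Trib3 (ENSMUSG00000032715; chromosome 2, 152337422 to 152344032, minus strand, GRCm38) stood at 1.59, 0.765 and 1.46 FPKM across the f/f libraries and 8.73, 4.73 and 7.25 across the d/d libraries. Every d/d library was well above every f/f library. The means were 1.27 ± 0.444 and 6.90 ± 2.03 FPKM (mean ± SD, n = 3 per group), a log2 change of 1.79 with SE 0.26 (adjusted p = 0.0122, limma). Leaving out f/f replicate 2, the lowest f/f library, ended the call (log2 change 1.61, limma adjusted p = 0.0515), and it held without any other single library. No other annotated gene overlaps Trib3.

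Ddit3, which encodes CHOP, the factor that with ATF4 induces Trib3, stood at 24.0, 20.8 and 20.0 FPKM across the f/f libraries and 32.4, 21.5 and 26.8 across the d/d libraries. The groups overlapped, since d/d replicate 2 was below f/f replicate 1. The log2 change was 0.29 (SE 0.16, 95% interval from -0.10 to 0.68, limma adjusted p = 0.280). Ddit3 overlaps Mars1, a tRNA synthetase gene on the opposite strand with means of 16.9 (f/f) and 22.05 (d/d) FPKM. No strand setting is stated for the counting, so reads of the 2 genes cannot be told apart where they overlap. Atf5, a related factor also controlled by translation, ranged from 67.9 to 83.0 FPKM in f/f and from 76.1 to 93.3 in d/d, with overlap. It shares bases with Nup62 on the opposite strand, with means of 15.4 (f/f) and 28.3 (d/d) FPKM.

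Chac1, which encodes an enzyme that breaks down glutathione, stood at 2.29, 1.27 and 1.02 FPKM across the f/f libraries and 2.32, 5.50 and 4.35 across the d/d libraries. The groups were parted by a narrow margin, because d/d replicate 1 was nearly at the level of f/f replicate 1. The change missed the threshold (log2 change 0.98, SE 0.31, limma adjusted p = 0.0941). It passed without both replicates 1 (log2 change 1.46, limma adjusted p = 0.0243).

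None of the 4 serine and one-carbon genes within this arm (0 of 4) passed the test. Phgdh, the first enzyme of serine synthesis, stood at 1.41, 2.24 and 2.44 FPKM across the f/f libraries and 3.73, 3.68 and 4.28 across the d/d libraries. All d/d libraries were above all f/f libraries, but the change missed the threshold (log2 change 0.71, SE 0.20, limma adjusted p = 0.0643) except without a variance trend in limma (adjusted p = 0.0469). Psat1, the next enzyme of that pathway, had means of 25.4 ± 2.82 (f/f) and 25.1 ± 3.57 (d/d) FPKM (mean ± SD, n = 3 per group), with a 95% interval of its log2 change from -0.35 to 0.32 and a sign that turned with TMM scaling (0.0055). Shmt2, which turns serine into glycine in mitochondria, was at 19.1 ± 0.769 and 20.5 ± 1.64 FPKM (mean ± SD, n = 3 per group). Mthfd2, the mitochondrial folate enzyme downstream of it, stood at 10.9, 30.7 and 31.4 FPKM across the f/f libraries and 8.32, 7.50 and 8.99 across the d/d libraries. The d/d libraries were all lower, while f/f replicate 1 was near them and far from the other f/f libraries. The change missed the threshold with all 6 libraries (log2 change -1.32, SE 0.38, limma adjusted p = 0.0717). With f/f replicate 1 left out it passed, at -1.79 (limma, adjusted p = 0.00229), and likewise with both replicates 1 left out, at -1.80 (limma, adjusted p = 0.00587).

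Asns, which makes asparagine, stood at 7.40, 7.95 and 7.76 FPKM across the f/f libraries and 8.49, 9.38 and 10.9 across the d/d libraries, without overlap and without passing the test (log2 change 0.28, SE 0.13, limma adjusted p = 0.204). The tRNA synthetase genes Sars and Wars overlapped between groups, with means of 43.01 and 46.6 FPKM for Sars and 28.7 and 35.2 for Wars, where d/d replicate 2 alone was at 44.8. Ddit4, an inhibitor of mTOR signalling that glucocorticoids also induce, ranged from 24.4 to 33.9 FPKM in f/f and from 31.3 to 39.05 in d/d, with overlap. Ppp1r15a (chromosome 7, 45522916 to 45526268, minus strand, GRCm38), the feedback member of the arm, stood at 18.9, 21.9 and 19.3 FPKM across the f/f libraries and 12.1, 13.3 and 8.28 across the d/d libraries. The groups were clearly apart, with every d/d library lower. The means were 20.01 ± 1.62 and 11.2 ± 2.62 FPKM (mean ± SD, n = 3 per group), a log2 change of -0.80 with SE 0.18 (adjusted p = 0.0372, limma). The call was lost without any single library (log2 change from -0.93 to -0.62, limma adjusted p from 0.0542 without d/d replicate 2 to 0.130 without f/f replicate 2), and without the filter on low values (adjusted p = 0.0686). Ppp1r15a shares bases with Tulp2 on the opposite strand, with means of 1.09 (f/f) and 0.604 (d/d) FPKM. Ppp1r15b, the gene of the other such phosphatase subunit, went the other way, with means of 23.3 (f/f) and 29.5 (d/d) FPKM. Its groups did not overlap, and it did not pass (log2 change 0.32, SE 0.09, limma adjusted p = 0.0627).

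Among 14 ER chaperones and folding factors 0 rose and 1 (Creld2) fell, where 11.0% of all features were called. Their median log2 change was -0.18, from -0.92 to 0.23. Of the 14, 4 were above 0 and 10 below, where 7528 of all 15438 features tested were above and 7910 below. The levels, which FPKM lets be compared between genes, placed 7 of these genes above every other member. Calr, a lectin chaperone, had the highest mean over the 6 libraries (501 FPKM), followed by Hspa5 (477), Hsp90b1 (435) and Pdia3 (397), while Trib3 (4.09), Phgdh (2.96) and Chac1 (2.79) were the lowest members. Hspa5, which encodes BiP, the chaperone that holds the sensors inactive, stood at 420, 440 and 545 FPKM across the f/f libraries and 498, 421 and 541 across the d/d libraries. The groups overlapped almost fully. The means were 468 ± 67.4 and 487 ± 60.9 FPKM (mean ± SD, n = 3 per group), a log2 change of 0.06 with SE 0.16 (adjusted p = 0.846, limma), with a 95% interval from -0.32 to 0.44, and the sign turned with quantile normalization (-0.089). Calr was likewise at 504 ± 43.3 and 499 ± 62.04 FPKM (mean ± SD, n = 3 per group), with a 95% interval of its log2 change from -0.36 to 0.32 and a sign that turned with TMM scaling (0.0053).

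The ER chaperones with the lowest values in d/d relative to f/f were not the most abundant. Creld2 (chromosome 15, 88819646 to 88826683, plus strand, GRCm38) stood at 98.5, 113 and 167 FPKM across the f/f libraries and 64.0, 56.9 and 74.7 across the d/d libraries. Every d/d library was below every f/f library, and f/f replicate 3 was the highest. The means were 126 ± 36.1 and 65.2 ± 8.94 FPKM (mean ± SD, n = 3 per group), a log2 change of -0.92 with SE 0.21 (adjusted p = 0.0405, limma). The call held without f/f replicate 1 (adjusted p = 0.0253) and was lost without any other single library (log2 change from -1.02 to -0.70, limma adjusted p from 0.0722 without f/f replicate 3 to 0.114 without d/d replicate 2), without both replicates 1 (0.0530), without the filter on low values (0.0749) and without a variance trend (0.0517).

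Dnajb9, a co-chaperone of BiP that restrains IRE1, stood at 71.9, 75.5 and 87.2 FPKM across the f/f libraries and 47.9, 49.4 and 63.9 across the d/d libraries, with no overlap (log2 change -0.54, SE 0.14, limma adjusted p = 0.0575). It passed with rescaling to protein-coding nuclear genes (adjusted p = 0.0328), with quantile normalization (0.0369) and without d/d replicate 3 (0.0493). Hyou1, a large chaperone that helps BiP exchange its nucleotide, stood at 60.04, 77.7 and 93.9 FPKM across the f/f libraries and 51.4, 49.4 and 57.3 across the d/d libraries. Its groups did not overlap and its change missed the threshold (log2 change -0.52, SE 0.17, limma adjusted p = 0.0968), passing without f/f replicate 1 (-0.69, adjusted p = 0.0250). Sdf2l1, a partner of ER co-chaperones, stood at 60.2, 61.6 and 80.9 FPKM across the f/f libraries and 50.3, 51.6 and 54.1 across the d/d libraries, also apart but missing the threshold (log2 change -0.36, SE 0.13, limma adjusted p = 0.134).

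Of the other folding genes, Canx, the membrane-bound relative of Calr, was the only chaperone gene whose d/d libraries all lay above the f/f libraries, at 146, 157 and 165 against 126, 139 and 142 FPKM (log2 change 0.20, SE 0.10, limma adjusted p = 0.246). The groups overlapped for the disulfide isomerases Pdia3, Pdia4 and Pdia6, the co-chaperones Dnajb11 and Dnajc3, the HSP90 paralog Hsp90b1 and the secreted factor Manf, with log2 changes between -0.36 (Hsp90b1) and 0.23 (Pdia3). Hsp90b1 passed only with quantile normalization among the alternatives run (log2 change -0.49, limma adjusted p = 0.0403). Some of these genes share bases with others. Among them are Pdia6 with Atp6v1c2 on the opposite strand, with means of 13.6 (f/f) and 3.37 (d/d) FPKM. Manf shares bases with Rbm15b on the same strand, with means of 12.35 (f/f) and 22.7 (d/d) FPKM. The chaperone genes varied together among libraries of a group. All 14 were highest in f/f replicate 3 among the f/f libraries, where 34.7% of all features tested were, and 12 were lowest in f/f replicate 1 (40.2% of all features). In d/d, 10 were highest in replicate 3 and 9 lowest in replicate 2, against 33.1% and 36.5% of all features. Without f/f replicate 3 the median log2 change of the 14 was -0.09. The steroidogenic gene Cyp11a1, a marker of ovarian cells, was at 13.5 FPKM in f/f replicate 3 and at most 0.725 in the other 5 libraries; its part in the chaperone values was not tested.

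**Figure D3:**
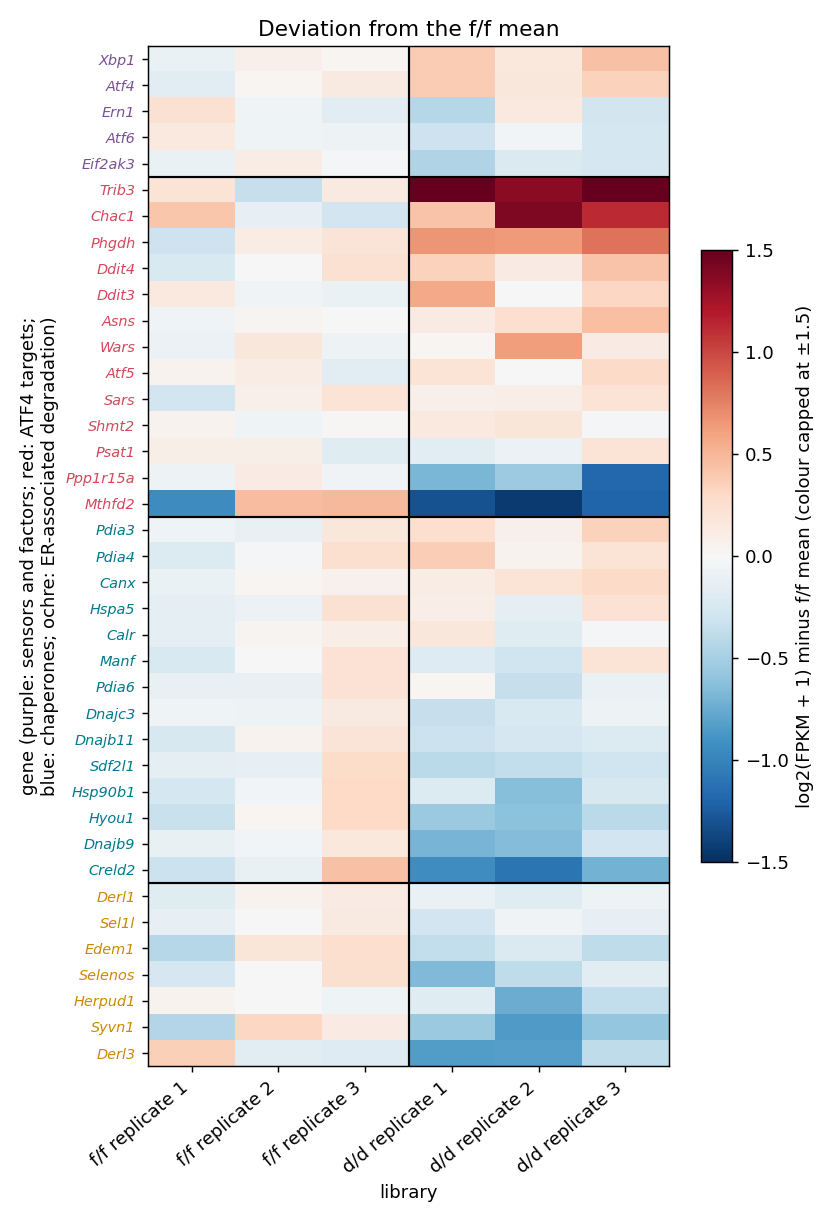
Deviation of log2(FPKM + 1) from the f/f mean for each gene (rows, grouped by role) and library (columns), with red above and blue below and colours capped at 1.5. The chaperone rows are reddest among f/f libraries in f/f replicate 3, which held the highest f/f value for all 14. Trib3 and Chac1 have the largest mean d/d deviations above 0. Chac1 is less red in d/d replicate 1, at 2.32 FPKM against 2.29 in f/f replicate 1.

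Among 7 genes of ER-associated degradation 0 rose and 0 fell, where 11.0% of all features were called. All 7 had log2 changes below 0, from -0.68 to -0.12 with a median of -0.40. Of all 15438 features tested, 7910 were below 0. Derl3, a channel component of secretory cells, stood at 37.4, 25.8 and 25.3 FPKM across the f/f libraries and 15.8, 15.9 and 22.1 across the d/d libraries (log2 change -0.68, SE 0.20, limma adjusted p = 0.0736). Syvn1, which encodes the ubiquitin ligase HRD1, stood at 26.6, 45.1 and 39.7 FPKM across the f/f libraries and 24.3, 19.7 and 24.0 across the d/d libraries (log2 change -0.66, SE 0.20, limma adjusted p = 0.0859). In both genes every d/d library was below every f/f library, and f/f replicate 1 had the top f/f value of Derl3 and the bottom one of Syvn1. Without f/f replicate 1 Syvn1 passed (log2 change -0.88, limma adjusted p = 0.0158), as did Edem1, a lectin that delivers misfolded glycoproteins (-0.54, adjusted p = 0.0318, against -0.32 and 0.302 with all libraries). Syvn1 also passed without both replicates 1 (-0.93, adjusted p = 0.0260). Herpud1, an ER membrane protein that assembles this machinery, stood at 80.1, 77.8 and 74.0 FPKM across the f/f libraries and 67.9, 45.6 and 59.7 across the d/d libraries, apart but not past the threshold (log2 change -0.43, SE 0.15, limma adjusted p = 0.118). Sel1l, the partner of HRD1, and Derl1 and Selenos, of the retrotranslocation complex, overlapped between groups, with log2 changes of -0.15, -0.12 and -0.40.

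Set side by side, the 2 arms had medians of opposite sign, 0.26 for the 13 ATF4 targets and -0.18 for the 14 chaperones, against -0.01 over all features tested. The sizes rest in part on single libraries: without d/d replicate 1 the ATF4 target median was 0.15, and the chaperone median was -0.09 with f/f replicate 3 left out and -0.27 with d/d replicate 3 left out. The mean of log2(FPKM + 1) over the ATF4 targets, relative to its f/f mean, came to -0.08, 0.05 and 0.03 across the f/f libraries and 0.20, 0.20 and 0.26 across the d/d libraries. The same mean over the chaperones came to -0.18, -0.04 and 0.22 (f/f) and -0.19, -0.32 and -0.08 (d/d). The d/d libraries lay above the f/f libraries for the ATF4 targets, whereas for the chaperones they overlapped. The difference of the means, ATF4 targets minus chaperones, came to 0.10, 0.09 and -0.19 (f/f) and 0.38, 0.52 and 0.34 (d/d). These are descriptions of genes chosen with earlier results of these data known, and the difference between the arms was not tested. The mean of the ATF4 targets takes in Trib3 and Chac1, whose changes were the largest upward. The median over the ATF4 targets of the same deviation came to -0.05, 0.08 and 0.01 (f/f) and 0.15, 0.12 and 0.28 (d/d). For the degradation genes the mean deviation came to -0.14, 0.06 and 0.09 (f/f) and -0.43, -0.47 and -0.29 (d/d). In the wider lists given below, 22 other ATF4 and CHOP targets had a median log2 change of -0.09. It was -0.18 for 8 amino acid transporters of the ATF4 programme and 0.05 for 18 other cytosolic tRNA synthetases. The median of 0.26 in the 13 ATF4 targets was thus not shared by these lists.

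**Figure D4:**
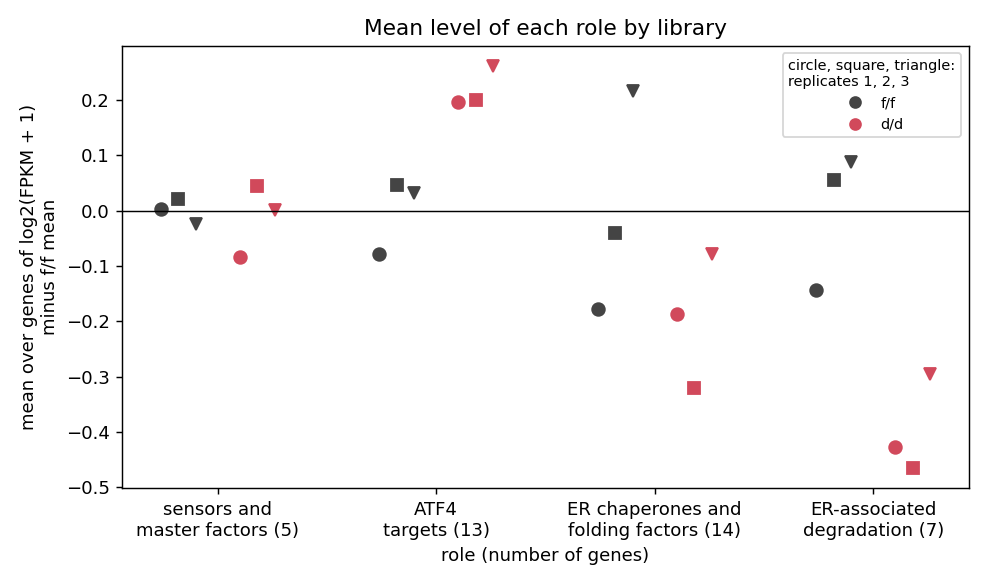
Mean over the genes of each role of log2(FPKM + 1), relative to the f/f mean, in each library (symbols for replicates 1, 2 and 3; number of genes in parentheses). The d/d libraries of the ATF4 targets lie at 0.20 to 0.26, above all f/f libraries, those of the degradation genes lie below all f/f libraries, and chaperones and sensors overlap between groups.

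The rest of the pathway was read from lists of 156 further genes of known role, also chosen with earlier results of these data known, of which 151 were tested. Of these, 4 rose and 3 fell, where 6.04% of all features tested rose and 4.97% fell. The same shares serve as the comparison for every list below. Of 22 other ATF4 and CHOP targets tested, 2 rose and 1 fell, with a median log2 change of -0.09. Eif4ebp1, a translation repressor gene, rose from 13.6 ± 2.28 to 27.8 ± 5.39 FPKM and the transcription factor gene Cebpb from 54.4 ± 7.56 to 84.1 ± 9.02 (mean ± SD, n = 3 per group; adjusted p = 0.0202 and 0.0345, limma). Gpt2, a mitochondrial alanine transaminase, fell from 58.4 ± 6.82 to 28.0 ± 6.14 FPKM (mean ± SD, n = 3 per group; adjusted p = 0.0168, limma). The members of this arm and these targets both included genes called in both directions, but their medians differed in sign. The median was 0.26 for the 13 members, while of these 22 targets 10 were above 0 and 12 below. None of the 8 amino acid transporters of the ATF4 programme passed (0 of 8, median -0.18), among which Slc1a5 was at 94.1 and 91.1 FPKM and Slc3a2 at 85.5 and 67.1 as group means. The 18 other cytosolic tRNA synthetases had 0 calls and a median of 0.05, with Qars at 85.3 and 74.7 FPKM and Dars at 61.1 and 56.05. The 13 genes listed with eIF2, its kinases, eIF2B and the phosphatase had 0 calls and a median of -0.02. Eif2s1, the eIF2 subunit that is phosphorylated, was at 39.2 and 30.4 FPKM. The list also holds Eif2a, at 44.6 and 39.2 FPKM, which encodes a separate initiation factor and not a subunit of eIF2.

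On the ER side, 0 of 20 other folding enzymes passed (median -0.07), with the cyclophilin Ppib at 406 and 423 FPKM and the prolyl hydroxylase subunit P4hb at 285 and 286. Of 22 genes of translocation and signal peptide processing 1 fell, Ssr3 of the translocon-associated complex, from 220 ± 15.6 to 147 ± 9.90 FPKM (mean ± SD, n = 3 per group; adjusted p = 0.0218, limma), and the median was -0.15. Transport from the ER to the Golgi had 0 calls of 17 (median -0.06), with Kdelr1 at 138 and 130.1 FPKM and Surf4 at 117 and 111. The 17 other degradation genes had 0 calls and a median of -0.16, with Aup1 at 85.5 and 76.5 FPKM. Among 14 regulators of ER stress, Mbtps1, the protease that cleaves ATF6, rose 1.38-fold to 81.9 ± 4.04 FPKM (SD, n = 3; limma adjusted p = 0.0262) and Bak1, of the cell death machinery, 1.51-fold. Creb3l4, a relative of ATF6, fell 3.13-fold, from 43.96, 18.9 and 20.1 FPKM in f/f to 11.0, 5.92 and 9.62 in d/d (limma adjusted p = 0.0460). Outside the ER, 1 of 11 cytosolic heat shock genes rose (Hspa8, 1.69-fold; median -0.05) and 2 of 10 mitochondrial chaperone and protease genes rose (Hspe1, 1.78-fold, and Hspa9, 1.43-fold; median 0.20), with 0 falls in either list. Hspa8 and Hspe1 have near-identical pseudogene copies, so their values are uncertain. The number of pathway calls, 7 with all libraries, was 0 with either f/f replicate 2 or d/d replicate 3 left out and 9 with f/f replicate 1 left out.

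Markers of other cells differed between the groups, where 6.04% of all features tested rose and 4.97% fell. Plasma cells have an expanded ER, and of 10 of their markers 8 were tested, of which 2 rose (Igha 5.92-fold and Igkc 4.84-fold) and 0 fell, with summed levels of 302 to 645 FPKM in f/f and 1241 to 2593 in d/d and none at 0 in all libraries. Of 10 macrophage markers 9 rose and 0 fell, summing to 376 to 490 FPKM in f/f and 1063 to 1415 in d/d. Of 10 markers of the secretory epithelium 4 rose and 1 fell, summing to 5524 to 6680 and 5905 to 8314 FPKM. These markers did not move together, with 6 log2 changes above 0 and 4 below. Ltf had means of 487 (f/f) and 2012 (d/d) FPKM, and Lcn2 71.7 and 513. Ovgp1 had means of 4993 and 4013, Pax8 40.6 and 34.1, and Sox17 207 and 104, all short of the threshold. The part of these cell types in the values of the stress genes was not tested. Among pancreatic acinar genes, whose cells are also rich in ER, 1 of 14 was tested and rose (Cela1, at a mean of 1.80 and 5.40 FPKM), and 7 were at 0 in all libraries, the trypsinogen gene Prss2 and the amylase gene Amy2a5 among them. Of multiciliated cell markers 0 of 12 passed, with sums of 393 to 838 FPKM in f/f and 246 to 727 in d/d. In the lists for smooth muscle, fibroblasts, endothelium, ovarian steroidogenic cells and red blood cells, 0, 2, 1, 0 and 0 genes rose and 1, 1, 0, 0 and 0 fell.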

How the data were processed

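RNA of 6 whole oviduct libraries was sequenced by the submitters, with TRIzol extraction and TruSeq RNA libraries per the labels' protocols. HISAT2 2.2.1, Cufflinks 2.2.1 and the builds mm9 and mm10 are named per the submitters' processing notes, without roles; for the annotation, filters and strand setting the sources used here give nothing. The deposited values were read as FPKM, an inference from the named tool and from decimals whose totals differ between libraries. In single-transcript genes longer than 1500 nt, FPKM under 0.1 fell on a common lowest step (91.6% to 95.2% within 1%, with 255 nt taken off the length), which implied 16600000 to 17800000 fragments per library. Whole counts could not be recovered for other values, and count models were therefore left out.

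Rows sharing a symbol were summed (among members, Ddit3, whose second row was at 0). Features with a mean of at least 1 FPKM entered a linear model of log2(FPKM + 1) fitted by limma 3.58.1, R 4.3.3 (eBayes with a variance trend), genotype as the only term, two-sided, with Benjamini-Hochberg adjusted p under 0.05 over 15438 features. Log2 changes are d/d minus f/f on that scale and are too small for low genes. A fold is the ratio of the group means in FPKM. The fit was run on simulated data with independent noise for each gene, as a check that large planted changes were recovered. That check set no limit on false calls and required nothing of smaller changes. Coordinates of genes are from GENCODE M21 and those of promoter windows from RefSeq, and their starts can differ. The members, their roles and all lists were chosen with earlier results of these data known. Every member is given, those past the threshold, Atf4, Xbp1, Hspa5 and Ddit3 in full; of each other pathway list, up to 3 called genes or the 2 most abundant are named, except 1 gene that is not reported here. Other genes were named after their values were seen. The sample titles do not say whether same-numbered libraries were paired. Deviations of same-numbered libraries correlated at -0.22 to 0.0027, which cannot decide it. The main fit did not take the numbers as pairs.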

Additional observations from a re-analysis of the deposited data

How the results depend on the processing

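Of 546 values of single members over 14 alternatives, 496 kept their direction and side of the threshold. Trib3, Ppp1r15a and Creld2 kept their direction in every alternative run. Without a variance trend 2 members rose and 1 fell (2 ATF4 targets rose, 0 chaperones fell). With quantile normalization 2 members rose and 4 fell, with 3 chaperones and 5 other pathway genes falling. Rescaling to protein-coding nuclear genes gave 2 chaperones and 5 other pathway genes that fell. Without the filter on low values 599 features rose and 508 fell, against 933 and 768 with it, and 0 members, ATF4 targets or chaperones fell. With the replicate number as a block 174 features rose and 102 fell. In that setting 0 members, 0 ATF4 targets and 0 chaperones fell, and 0 other pathway genes rose or fell. Of the 6 libraries, 0 correlated best with the library of its own number. These correlations are of values centred within groups of 3 libraries, so they cannot show whether the numbers mark pairs. Without both replicates 1, 2 members rose, both of them ATF4 targets, whose median log2 change was 0.16, and 0 chaperones fell. When single libraries were left out, which lowers the residual degrees of freedom, 0 to 1 members rose and 0 to 5 fell. The ranges were 0 to 1 rising and 0 to 1 falling for ATF4 targets, 0 to 2 falling for chaperones, 0 to 5 rising and 0 to 4 falling for other pathway genes, and 184 to 942 rising and 124 to 853 falling over all features. The median of the ATF4 targets ran from 0.15 to 0.27 and that of the chaperones from -0.27 to -0.09. Signs turned for 6 members, with log2 changes from -0.18 (Ern1) to 0.13 (Sars) with all libraries. Psat1 was at 0.0055 with TMM scaling, 0.10 without both replicates 1 and -0.12 to 0.058 without single libraries. Hspa5 was at -0.089 with quantile normalization, -0.036 without both replicates 1 and -0.024 to 0.17 without single libraries. Calr was at 0.0053 with TMM scaling and -0.11 to 0.067 without single libraries, Ern1 at 0.052 without both replicates 1, Sars at -0.017 to 0.23 and Manf at -0.25 to 0.015 without single libraries. The cause of these changes was not tested. At 3 libraries a group the 95% intervals of most members were wide, so small changes were not detectable.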
